A study of Mus musculus with 6 samples.

Results

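Azurophil granules are the primary granules of neutrophils, filled at the promyelocyte stage with a peroxidase and a set of serine proteases that kill ingested microbes. Ribosome footprints were examined here for 10 genes of this compartment, out of 56748 genes listed in the deposited table and 28136 with reads. The genes were taken by symbol, and each symbol matched 1 row. They are the peroxidase Mpo, the serine proteases Elane, Prtn3, Ctsg and Prss57, the protease activator Ctsc, the inhibitors Serpinb1a and Cst7, the granule proteoglycan Srgn, and Ms4a3, a membrane protein of granulocyte and monocyte precursors. Membership was set by function, not by a measured value, but with earlier results of these data known.

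Myeloperoxidase turns hydrogen peroxide and chloride into hypochlorous acid. Neutrophil elastase (Elane), proteinase 3 (Prtn3), cathepsin G (Ctsg) and the related protease Prss57 are made as inactive precursors, and cathepsin C (Ctsc) trims a dipeptide from their front end to activate them. Serpinb1a blocks these proteases when they leak into the cytosol, cystatin F (Cst7) inhibits cathepsin C and other cysteine cathepsins, and serglycin (Srgn) carries the sulfated chains on which the basic granule proteins are stored.

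Ribosome profiling sequences the short mRNA stretches that ribosomes shield from a nuclease, here fragments of 24 to 36 nt. Mice had received 4.5 Gy of radiation 12 days earlier, whatever their genotype, and Lin-c-Kit+ cells were used, a population given as hematopoietic stem cells in the labels. Wild-type (WT) and Mov10 knockout mice gave 3 libraries each, and Mov10 encodes an RNA helicase. The labels do not state the animals' age, how the allele was made, whether it acts in all cells, or whether each replicate is an animal of its own. The p-values therefore rest on the spread between these libraries, which may be technical. In the main test that spread was partly taken from other genes of similar abundance. Footprints depend on the amount of an mRNA and on its translation, and mRNA levels were not analysed here. Fewer cells of a type and less RNA per cell cannot be told apart in such bulk libraries.

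WT libraries held 2260348 to 2499634 reads and knockout libraries 1118345 to 1352517, so depth and genotype went together. Counts of replicate pairs differed more than counting noise allows, with a mean chi-square per degree of freedom of 1.57 to 2.34 for WT pairs and 6.35 to 7.24 for knockout pairs, so that no 2 libraries were taken for 1. Mov10 itself had 107 ± 3.13 normalized reads (SD, n = 3) in WT and 62.1 ± 23.4 in the knockout. It did not pass the threshold (limma adjusted p = 0.0598), so the libraries are called by their labels. Kit, the receptor of the gate, had 1099 ± 15.8 normalized reads in WT against 1122 ± 35.7 in the knockout.

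The regions just upstream of 4 of the genes are shown because these genes are known as targets of the same myeloid factors, yet their footprints parted between the genotypes. The sequences are the 250 bases before the RefSeq transcript start (GRCm38.p6, a different build from the deposited table), 5′ to 3′ on the gene's strand. For Prtn3 that start lies nearer to Elane than the deposited gene start does, so its window is upstream of the RefSeq transcript only. Capitals mark AGGAAGT, the core bound by PU.1 and other ETS factors, and CAACGG, a core bound by MYB, on either strand.
Elane, chr10:79886062-79886311, plus strand: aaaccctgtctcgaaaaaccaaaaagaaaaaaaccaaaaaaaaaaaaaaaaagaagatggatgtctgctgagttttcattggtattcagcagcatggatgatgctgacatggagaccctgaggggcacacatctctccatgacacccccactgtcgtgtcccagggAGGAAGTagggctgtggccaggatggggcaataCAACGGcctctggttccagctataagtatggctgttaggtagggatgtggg
Prtn3, chr10:79879417-79879666, plus strand: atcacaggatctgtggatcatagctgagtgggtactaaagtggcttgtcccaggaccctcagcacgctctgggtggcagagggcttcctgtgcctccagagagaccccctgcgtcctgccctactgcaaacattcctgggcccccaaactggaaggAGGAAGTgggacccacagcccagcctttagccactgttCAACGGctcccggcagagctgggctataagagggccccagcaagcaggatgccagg
Mpo, chr11:87793534-87793783, plus strand: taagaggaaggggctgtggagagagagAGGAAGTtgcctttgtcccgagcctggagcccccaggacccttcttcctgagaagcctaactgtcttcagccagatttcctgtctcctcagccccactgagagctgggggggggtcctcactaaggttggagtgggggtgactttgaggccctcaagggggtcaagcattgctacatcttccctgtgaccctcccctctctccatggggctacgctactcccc
Ctsg, chr14:56102575-56102824, minus strand: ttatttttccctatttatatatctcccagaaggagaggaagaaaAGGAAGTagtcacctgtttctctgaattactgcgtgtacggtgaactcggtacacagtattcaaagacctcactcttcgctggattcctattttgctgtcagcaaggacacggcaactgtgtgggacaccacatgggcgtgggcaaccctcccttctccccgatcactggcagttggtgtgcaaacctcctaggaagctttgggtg

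Elane and Prtn3 had the same arrangement of both cores. AGGAAGT began 84 bases before the start of Elane and 94 bases before that of Prtn3, and CAACGG began 51 and 56 bases before. Windows were found for 8 of the 10 genes, all but Serpinb1a and Prss57. AGGAAGT on either strand was present for 6 of them (Mpo, Elane, Prtn3, Ctsg, Ctsc and Cst7), against 7.69% of 32851 windows of all genes. CAACGG was present for Elane and Prtn3 alone of the 8, against 4.05% of windows, and both cores together were in 0.298% of windows. TGTGGT, a RUNX core, was present for Cst7, Ctsg and Srgn, against 14.0% of windows, and TTGCNNAA, a C/EBP pattern, for none of the 8, against 9.56%. The marked motifs do not overlap each other. The letters AGGAAGT were chosen after these sequences were read, and a match is a description of letters, not a bound site.

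Mpo rose in the knockout, and the serine proteases did not move as one. Ctsg and Prss57 rose, Prtn3 fell, and Elane, the most abundant protease, did not pass the test. Serpinb1a and Srgn fell, while Ctsc, Cst7 and Ms4a3 did not pass. Called thus were 3 genes higher and 3 lower in the knockout out of 10, all of which met the minimum of 1 normalized read on average. Of all 17114 tested genes, 21.2% were called, 10.3% higher and 10.9% lower. The groups of 7 members did not overlap, against 39.8% of tested genes, and of these 3 were higher (16.9% of tested genes) and 4 lower (22.9%). The median log2 fold change, knockout minus WT, was -0.18 over the 10 genes and -0.17 over all tested genes. All 10 genes averaged at least 50 normalized reads. Of the 6307 genes at that level or above, 35.9% were called, and their median log2 fold change was 0.0094. Higher genes made up 48.4% of all calls, 62.5% after scaling by the upper quartile and 31.0% by library totals, which moved the median of all genes by 0.17 and -0.20.

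**Figure D1:**
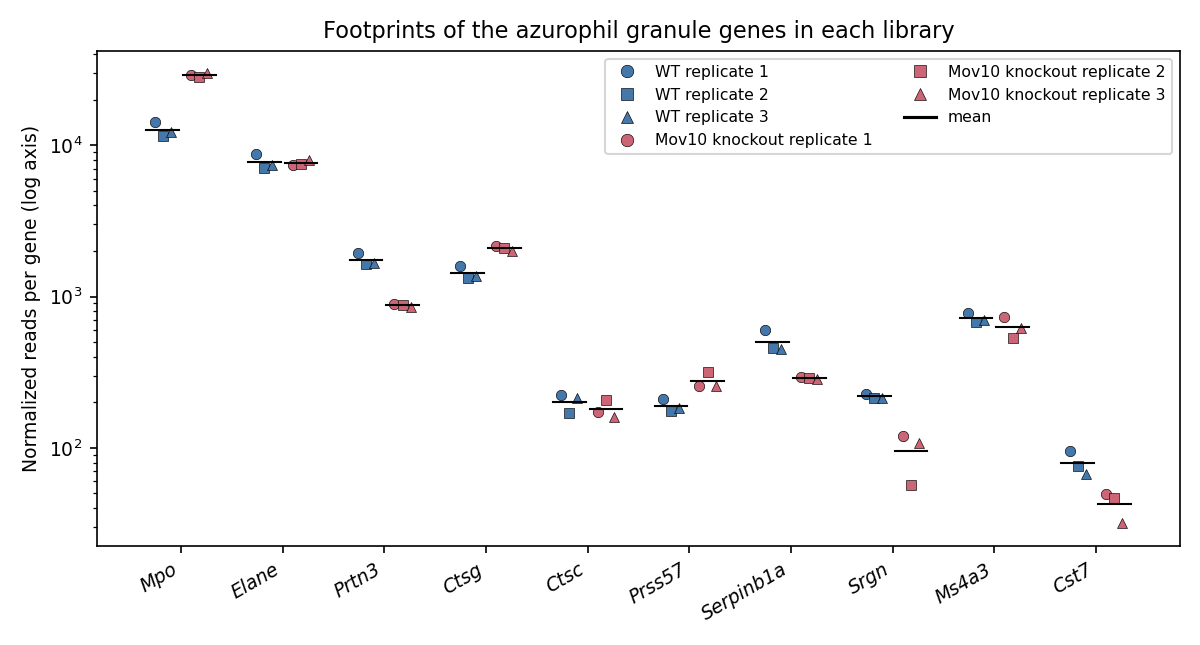
Normalized reads of each gene (log axis) in the 3 WT and 3 Mov10 knockout libraries, with a bar at the mean of each genotype. Mpo, Ctsg and Prss57 lie higher in all knockout libraries than in any WT library, Prtn3, Serpinb1a, Srgn and Cst7 lie lower, and Elane, Ctsc and Ms4a3 overlap.

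Mpo encodes the haem peroxidase of the azurophil granule and lies on chromosome 11 (87684407 to 87695239, GRCm39, plus strand). Its WT libraries held 14233, 11453 and 12294 normalized reads and its knockout libraries 28849, 28314 and 29855. All knockout libraries lay far above all WT libraries, and the knockout values were close to each other. The means were 12660.3 ± 1426 in WT and 29006 ± 782 in the knockout (SD, n = 3), a 2.29-fold higher level. On the log2(value + 1) scale the change was 1.20 (SE 0.071, limma adjusted p = 2.02e-05). Mpo was the gene with the second most normalized reads in every WT library and in knockout replicate 2, and it ranked first in knockout replicates 1 and 3. Among genes with whole reads, none gained more normalized reads between the genotype means. Mpo took 0.819% ± 0.0839 of all reads in WT against 1.599% ± 0.0381 in the knockout. An antisense lncRNA, Gm11505, overlaps it with 48.9 normalized reads in WT against 109 in the knockout, and reads of the 2 genes may not be separable because the use of strand in counting is not given. After cyclic loess, which fits away any trend of change with abundance, the log2 change of Mpo was 0.11 and not called (adjusted p = 0.149).

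Elane encodes neutrophil elastase, on chromosome 10 (79722081 to 79724049, plus strand). Its values were 8710.1, 7113 and 7446 normalized reads in WT against 7431, 7539 and 7935 in the knockout. The groups overlapped, with WT replicate 1 above and the other WT libraries near or below the knockout. The means were 7756 ± 843 and 7635 ± 266, and the log2 change was -0.018 (SE 0.073, limma adjusted p = 0.886). Its direction depended on scaling, with a log2 change of 0.18 under upper-quartile scaling, -0.25 with library totals (limma adjusted p = 0.0280) and -0.91 after cyclic loess (limma adjusted p = 2.32e-05). It was 0.069 without WT replicate 1 and 0.0015 without knockout replicate 1.

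Prtn3 encodes proteinase 3 and ends 3073 bases before Elane on the same strand (chromosome 10, 79710310 to 79719008). It had 1946, 1632 and 1657 normalized reads in WT against 899, 885 and 851 in the knockout. Every knockout library was far below every WT library. The means were 1745 ± 174 and 878 ± 24.5, a 1.99-fold lower level, with a log2 change of -0.99 (SE 0.083, limma adjusted p = 0.000122). Prtn3 was called lower under all 22 alternatives, with log2 changes from -1.47 to -0.79. By number of reads it ranked between 46 and 56 in the WT libraries and between 271 and 301 in the knockout libraries.

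Ctsg encodes cathepsin G, a chymotrypsin-like protease, on chromosome 14 (56337338 to 56340031, minus strand). Its values were 1597, 1334 and 1357 normalized reads in WT against 2159, 2099 and 1999.8 in the knockout. All knockout libraries were above all WT libraries. The means were 1429 ± 146 and 2086 ± 80.5, 1.46-fold higher, with a log2 change of 0.55 (SE 0.081, limma adjusted p = 0.00254). After cyclic loess that change was -0.0050, and without a variance trend the call was lost (adjusted p = 0.115).

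Prss57, a granule protease also known as neutrophil serine protease 4, lies on the same stretch of chromosome 10 on the minus strand (79617308 to 79626795). It had 209, 176 and 183 normalized reads in WT against 255, 315 and 258 in the knockout. The groups did not overlap, and knockout replicate 2 was the highest. The means were 189 ± 17.4 and 276 ± 34.2, 1.46-fold higher, with a log2 change of 0.54 (SE 0.14, limma adjusted p = 0.0292). The call was lost under 10 of 22 alternatives. These included leaving out WT replicates 1, 2 and 3 in turn (limma adjusted p = 0.0607, 0.122 and 0.119) and TMM scaling, library totals and cyclic loess, though the change was above 0 in all 22. Leaving out a WT library also cut the calls over all genes from 3628 to between 1360 and 1592.

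**Figure D2:**
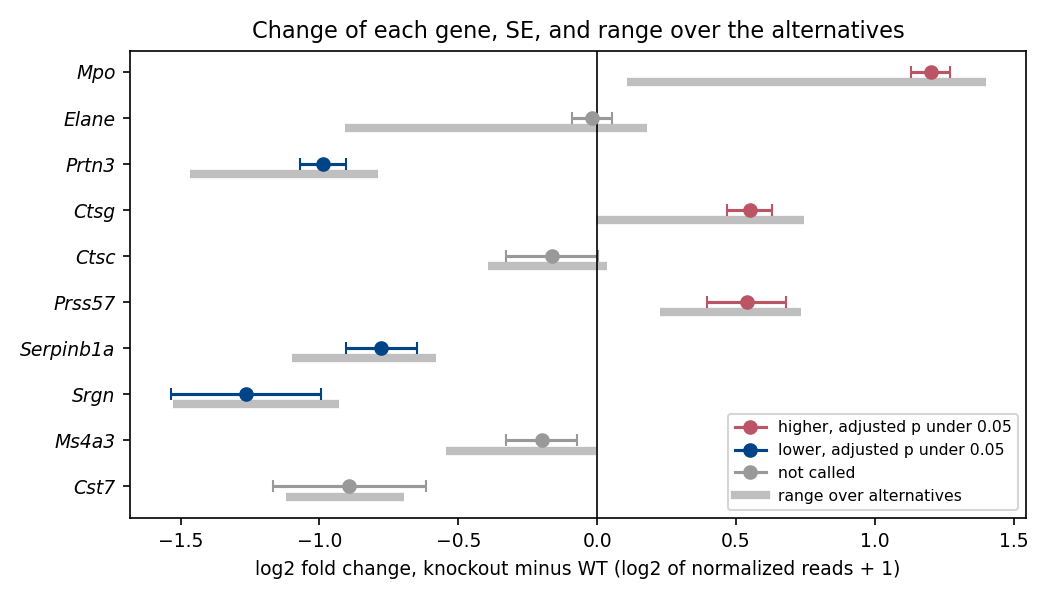
Log2 fold change of each gene, knockout minus WT, with SE (points and bars, limma on log2 of normalized reads + 1) and the range over 22 alternatives (grey bands). Prtn3, Serpinb1a, Srgn, Cst7 and Ms4a3 stay below 0 throughout, Ms4a3 reaching -0.0029, and Mpo and Prss57 stay above 0. The bands of Elane, Ctsg and Ctsc cross 0.

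Set side by side, the 4 proteases differed between the genotypes in how their reads were divided, while the comparison of their sum depended on the scale. Together they held 11120.0 ± 1178 normalized reads in WT against 10875 ± 153 in the knockout, and the groups overlapped. As a share of all reads their sum was 0.719% ± 0.0689 in WT and 0.599% ± 0.00720 in the knockout, and there every knockout library was below every WT library. Elane was 69.7% ± 0.328 of their reads in WT against 70.2% ± 1.45 in the knockout. Prtn3 was 15.7% ± 0.189 in WT and 8.08% ± 0.338 in the knockout. The share of Ctsg was 12.9% ± 0.130 in WT and 19.2% ± 1.01 in the knockout, and Prss57 was 1.70% ± 0.0226 in WT and 2.54% ± 0.323 in the knockout. Only the shares of Elane overlapped between the genotypes.

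Ratios of 2 genes within a library do not depend on the library's size factor. Reads of Elane over those of Prtn3 were 4.48, 4.36 and 4.49 in WT and 8.27, 8.52 and 9.33 in the knockout. The means were 4.44 ± 0.0739 and 8.71 ± 0.552 for these 2 neighbours with the same upstream motifs. Ctsg over Prtn3 was 0.819 ± 0.00196 in WT and 2.38 ± 0.0264 in the knockout. Mpo over Elane was 1.63 ± 0.0206 in WT and 3.80 ± 0.0713 in the knockout. The spread of these ratios within a genotype was small beside the difference between genotypes. Some of these SDs, such as those of Ctsg over Prtn3, lie below what counting error alone would give, so they understate the uncertainty. No test was made on them, since the genes were chosen with earlier results known.

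**Figure D3:**
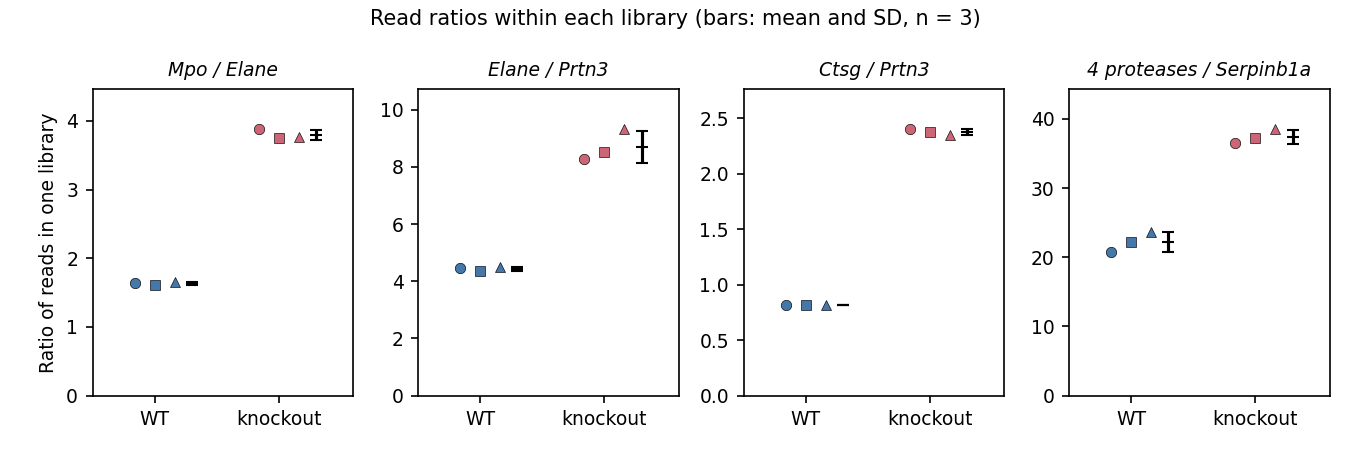
Ratio of the reads of 2 genes (or of the 4 serine proteases and Serpinb1a) in each of the 3 WT and 3 knockout libraries, with mean and SD. The knockout values of Mpo over Elane, Elane over Prtn3, Ctsg over Prtn3 and proteases over Serpinb1a all lie above every WT value.

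Ctsc, the activator of all these proteases, did not pass (chromosome 7, 87927293 to 87960096). It had 224, 171 and 213 normalized reads in WT against 173, 209 and 161 in the knockout, and the groups overlapped. The means were 202 ± 28.1 and 181 ± 24.9, with a log2 change of -0.16 (SE 0.17, limma adjusted p = 0.533), and 0.035 with upper-quartile scaling. Per 1000 reads of the 4 proteases there were 18.2 ± 1.68 reads of Ctsc in WT and 16.6 ± 2.40 in the knockout.

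Serpinb1a, the cytosolic inhibitor of the granule proteases, fell (chromosome 13, 33026075 to 33035168). Its values were 599, 460.3 and 449.7 normalized reads in WT against 294, 291 and 287 in the knockout. The knockout libraries were nearly equal and all below WT. The means were 503 ± 83.1 and 290.4 ± 3.64, 1.73-fold lower, with a log2 change of -0.78 (SE 0.13, limma adjusted p = 0.00436), and the call was lost without a variance trend (adjusted p = 0.0605). Reads of the 4 proteases per read of Serpinb1a numbered 22.3 ± 1.42 in WT and 37.5 ± 1.00 in the knockout. Its close relative Serpinb1c had 0.648 normalized reads on average in WT against 1.504 in the knockout, and reads shared between such copies may be split by the counting.

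Cst7 encodes cystatin F and was the least read of the 10 genes, with 99 to 147 reads in WT libraries and 22 to 37 in knockout libraries (chromosome 2, 150412335 to 150420864). Its values were 95.4, 76.1 and 67.5 normalized reads in WT against 49.6, 46.9 and 31.8 in the knockout. All knockout libraries lay below all WT libraries. With means of 79.7 ± 14.3 and 42.8 ± 9.58 and a log2 change of -0.89 (SE 0.28), it just missed the threshold (limma adjusted p = 0.0510). With edgeR on the recovered reads the adjusted p was 0.0420, and 7 of 22 alternatives put it under their threshold.

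Srgn, the core protein of serglycin, fell (chromosome 10, 62329612 to 62363230). It had 228, 215 and 215 normalized reads in WT against 121, 56.6 and 109 in the knockout. WT libraries were tightly grouped, all knockout libraries were below them, and knockout replicate 2 was lowest, with 35 reads. The means were 219 ± 7.60 and 95.3 ± 34.0, 2.30-fold lower, with a log2 change of -1.26 (SE 0.27, limma adjusted p = 0.0133). Without WT replicates 1, 2 and 3 in turn the call was lost (adjusted p = 0.0755, 0.0732 and 0.0725), settings in which calls over all genes fell too. The log2 change of Srgn stayed at -1.24 to -1.28 there. Without knockout replicate 2 it was -0.93 (adjusted p = 0.00615). For every 1000 reads of Mpo and the 4 proteases, there were 9.26 ± 0.684 reads of Srgn in WT and 2.38 ± 0.835 in the knockout.

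Ms4a3, whose protein marks precursors of granulocytes and monocytes, did not pass (chromosome 19, 11606860 to 11618215). Its values were 782, 674 and 700.5 normalized reads in WT against 736, 531 and 624 in the knockout, with overlapping groups. The means were 719 ± 55.9 and 630.1 ± 103, with a log2 change of -0.20 (SE 0.13, limma adjusted p = 0.305). It was called lower with library totals (-0.43, adjusted p = 0.0359) and after cyclic loess (-0.54, adjusted p = 0.0177).

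As a set, the 10 genes took 1.65% ± 0.163 of all reads in WT against 2.27% ± 0.0436 in the knockout, and the groups did not overlap. Without Mpo the share was 0.830% ± 0.0793 in WT and 0.668% ± 0.00569 in the knockout, the reverse order. On the deposited scale those 9 genes held 12843 ± 1357 normalized reads in WT against 12115 ± 141 in the knockout and the groups overlapped, so that order depends on the scaling. Mpo made up 49.6% ± 0.442 of the reads of the set in WT and 70.5% ± 0.323 in the knockout. The share of Elane was 30.4% ± 0.118 and 18.6% ± 0.375, and that of Prtn3 6.85% ± 0.139 and 2.14% ± 0.101. Shares of a sum are tied, so a larger part of Mpo lowers those of the others, and 9 of the 10 shares had a lower mean in the knockout. The make-up varied little within a genotype although the summed level of the set was 28623 normalized reads in WT replicate 1 and 23305 and 24582 in the other WT libraries.

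**Figure D4:**
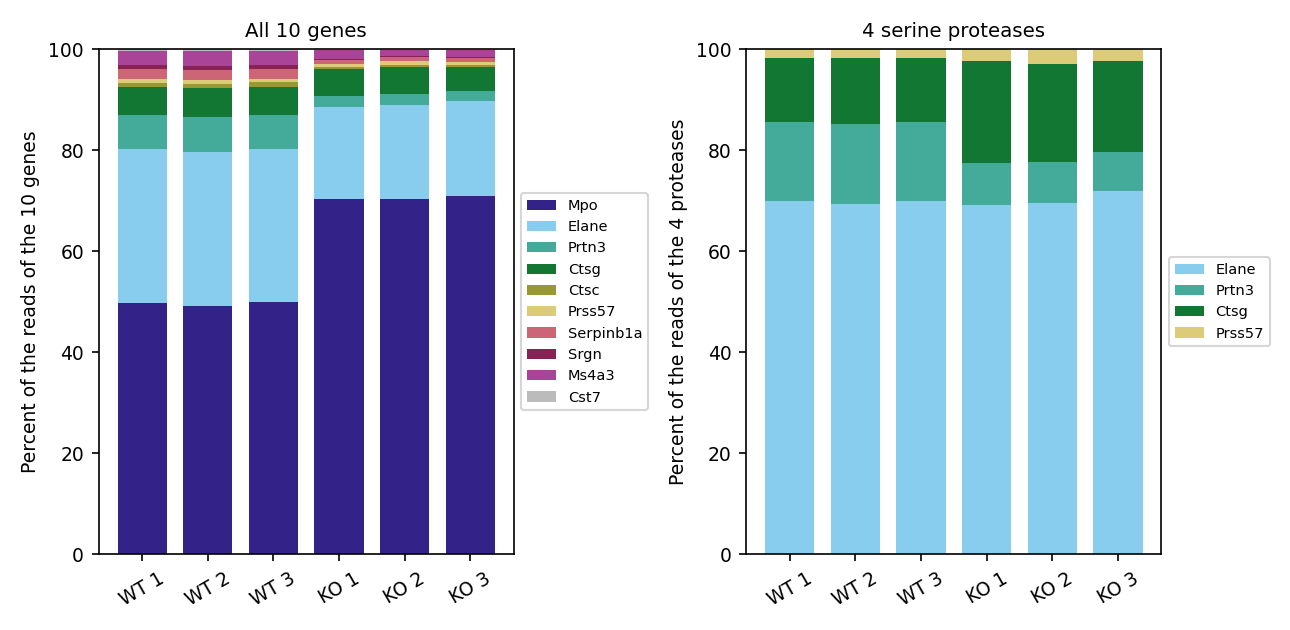
Percent of the reads of the 10 genes taken by each gene (left) and of the 4 serine proteases by each protease (right) in every library (KO is Mov10 knockout). Mpo takes 49.1% to 50.01% of the 10 genes in WT and 70.3% to 70.9% in the knockout, while among the proteases Elane takes 69.2% to 71.9% the share of Prtn3 is lower and that of Ctsg higher in every knockout library.

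Levels of different genes were compared per kilobase of the deposited gene length, which holds untranslated parts as well as coding sequence. In WT, Elane led with 7882 ± 856 normalized reads per kilobase, followed by Mpo with 3698 ± 416. The order of these 2 genes was turned in the knockout, where Mpo had 8471 ± 228 and Elane 7759 ± 270.0. Next came Ctsg, with 1384 ± 141 in WT and 2019 ± 77.9 in the knockout, and Prtn3, with 1008 ± 100.6 and 507 ± 14.2. Before division by length Prtn3 was ahead in WT, with 1745 normalized reads against 1429 for Ctsg. Their WT order thus rests on the deposited lengths of 1732 and 1033 bases. Ms4a3 (382 ± 29.7 and 334 ± 54.7) and Serpinb1a (218 ± 36.1 and 126 ± 1.58) held the fifth and the sixth place in both genotypes. In WT the lower places went to Srgn (99.8 ± 3.46), Cst7 (80.8 ± 14.5), Prss57 (66.6 ± 6.13) and Ctsc (34.8 ± 4.84), where Cst7 and Prss57 overlapped. In the knockout Prss57 came before Srgn, Cst7 and Ctsc, with 97.1 ± 12.0 against 43.4 ± 15.5, 43.4 ± 9.72 and 31.1 ± 4.29, and neighbours among those last 3 overlapped.

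Abundant genes tended to be higher in the knockout in these libraries, a pattern that bears on the strongest members. Of 171 genes averaging 1000 normalized reads or more, which include Mpo, Elane, Prtn3 and Ctsg, 69.6% were called higher and 9.94% lower, with a median log2 change of 0.62. Prtn3 was one of the 17 lower genes in that class. Among 1855 genes between 200 and 1000 normalized reads, which include Serpinb1a, Ms4a3 and Prss57, 36.4% were higher and 15.0% lower, with a median of 0.19. Among 4281 genes between 50 and 200, which include Ctsc, Srgn and Cst7, the shares were 13.5% and 13.8%. The part of this trend in the changes of single members was not tested.

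Prss57, Prtn3 and Elane lie in 1 stretch of chromosome 10, so the protein-coding genes within 100 kilobases of any of them were read as well. Of 21 such genes 18 were tested, of which 3 were higher, 4 lower and 11 not called. Of all tested genes 10.3% were higher and 10.9% lower. Calls of both directions were spread over the stretch. Rnf126 (log2 change -2.26) and Tmem259 (-1.17) were lower. Cdc34 (1.10), Wdr18 (0.46) and Kiss1r (2.35, from 1.98 normalized reads in WT) were higher. The 2 genes next to Prtn3 on the side away from Elane were both lower as well. Plppr3, a lipid phosphatase-related membrane protein gene on the other strand, had 299.9 normalized reads in WT against 122 in the knockout (log2 change -1.28, SE 0.17, limma adjusted p = 0.00137). In the deposited coordinates its 5′ end overlaps that of Prtn3 by 159 bases, so their reads may not be separable without strand. That end of Prtn3 is not the RefSeq start used for the upstream window. Ptbp1, a splicing regulator, had 365 and 139 (log2 change -1.41, SE 0.19, limma adjusted p = 0.00145). On the other side of Elane, Cfd, the complement protease adipsin and a relative of the granule proteases, had 2.65 normalized reads in WT against none in the knockout, where 3 reads would be 4.02 to 4.85, and Med16 had 81.8 and 79.1. Around Ctsg, a cluster of mast cell protease and granzyme genes, 1 of 9 neighbours was tested. This was Mcpt8, a basophil protease gene, which rose from 213 ± 8.16 to 319 ± 26.9 (limma adjusted p = 0.0117).

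**Figure D5:**
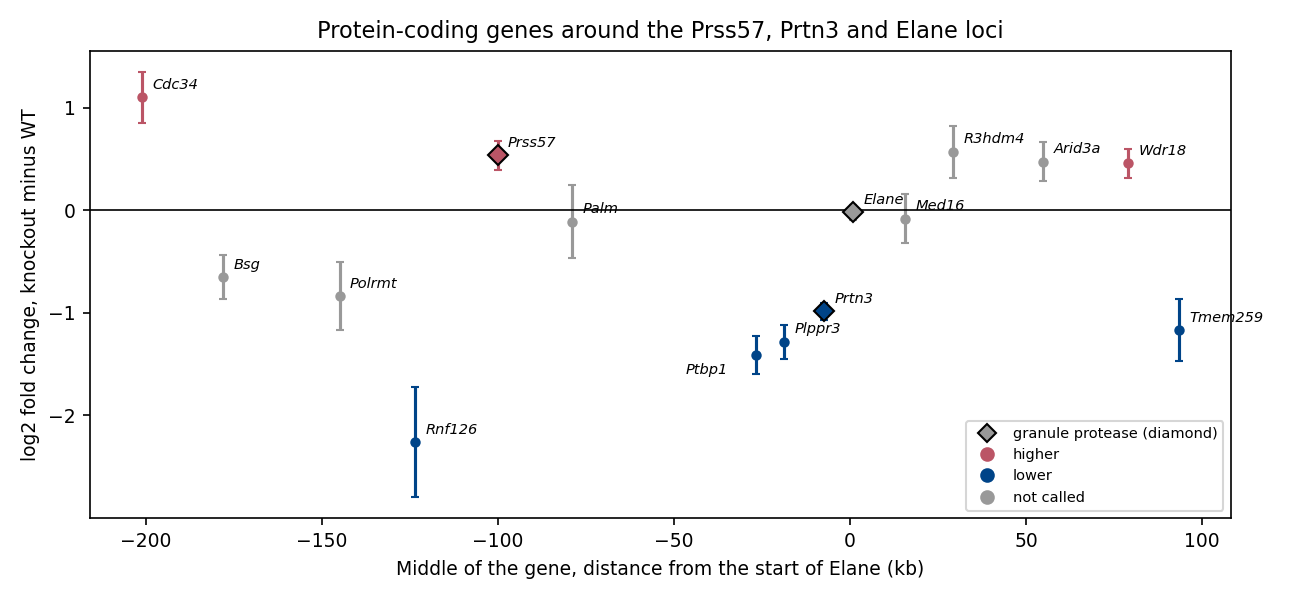
Log2 fold change (knockout minus WT, with SE) of 15 protein-coding genes with at least 20 normalized reads on average, by distance of the gene's middle from the start of Elane in kilobases. Diamonds are Prss57, Prtn3 and Elane. Prtn3, Plppr3 and Ptbp1 lie together below 0, while Elane and Med16 lie near 0. Farther off, Rnf126 and Tmem259 also lie below 0, and Cdc34 and Wdr18 lie above it.

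Genes that fold, sort and switch on these enzymes were read from lists set out with the members. Their counts stand beside 10.3% higher and 10.9% lower among all tested genes. Of genes averaging at least 50 normalized reads 35.9% were called. No list was tested against these shares. The first list held 26 genes, most of them chaperones and glycan enzymes of the secretory pathway, together with the proteases Furin and Cpd and the haem genes Fech and Hmox2. Of these 26, 9 were higher and 0 lower in the knockout by limma, with 17 not called. At an unadjusted p under 0.05 there was 1 lower gene, and edgeR called 0 lower. The 9 higher genes were Hmox2, a haem oxygenase (log2 change 1.48, limma adjusted p = 0.000846), and 8 chaperone or glycan-trimming genes (Calr, Canx, Hspa5, Pdia3, Hsp90b1, Prkcsh, Ganab and Uggt1). They included calreticulin (Calr) and calnexin (Canx), chaperones that myeloperoxidase is known to bind while it takes up haem. Calr rose from 3576 ± 271 to 8280.2 ± 390.2 normalized reads, 2.32-fold, and Canx from 1931 ± 67.1 to 3956 ± 176, 2.05-fold. Hspa5, the main chaperone of the endoplasmic reticulum, rose 2.16-fold and Pdia3, a disulfide isomerase, 1.79-fold. These 4 genes belong to the abundant class in which 69.6% were higher, and so do Hsp90b1, Ganab and Uggt1. Prkcsh lies between 200 and 1000 normalized reads, where 36.4% were higher, and Hmox2 between 50 and 200, where 13.5% were. Enzymes that build the sugar chains of serglycin, such as Ext1 (32.1 ± 4.85 and 17.7 ± 7.05) and Xylt1 (163 ± 5.75 and 132 ± 22.2), did not pass.

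Sorting and release genes went both ways, with 9 of 30 higher and 6 lower. Of all genes between 200 and 1000 normalized reads 36.4% were higher and 15.0% lower, and between 50 and 200 the shares were 13.5% and 13.8%. Rab27a, a GTPase of granule release, rose from 140.2 ± 2.89 to 372 ± 27.3, 2.65-fold. Ap3b1, a subunit of the adaptor whose loss missorts elastase, rose 1.94-fold, while Ap3m1 of the same complex fell from 53.5 ± 9.86 to 12.6 ± 7.87. Igf2r, a receptor that carries lysosomal enzymes, rose 2.48-fold and Cd63, a granule membrane protein that binds elastase precursor, 1.53-fold. Lyst, a regulator of granule size, fell 1.37-fold.

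Regulators of primary granule genes were also divided, with 4 of 17 higher and 4 lower. Spi1, which encodes PU.1, rose from 100.5 ± 7.42 to 165 ± 26.4 and Myb from 1935 ± 30.4 to 2481 ± 229.8. Cebpe, a factor of late granulocyte development, rose 1.71-fold and Cebpg, a C/EBP partner, 11.3-fold to 583 ± 67.1. Cebpd, Cebpb, Irf8 and the receptor gene Csf3r fell, Irf8 from 603 ± 5.79 to 313 ± 44.9. Cebpa had 41.2 ± 7.55 and 20.6 ± 10.5 and did not pass (limma adjusted p = 0.125).

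Other contents of azurophil granules were higher in 5 of 20 tested genes and lower in 1. The higher ones included Stom (1.84-fold), Cd63 and Man2b1, and the lower one was Glb1, a galactosidase, at 205 ± 13.1 and 94.5 ± 24.5. Lyz2, the lysozyme of myeloid cells, had 867 ± 111 and 815 ± 143 and did not pass (limma adjusted p = 0.673). Of 15 genes for secondary and tertiary granules, which are formed later, 5 were higher and 3 lower. Fcnb, a ficolin, rose from 614 ± 29.1 to 1424 ± 42.3 and Mmp9 2.08-fold, while Chil3 fell 2.72-fold and Ngp from 2099 ± 229 to 1259 ± 84.4.

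Relatives of the members showed no common direction. Of 6 tested peroxidase genes 0 were called by limma, 0 by edgeR and 0 at an unadjusted p under 0.05, and Epx, the eosinophil peroxidase, had 3941 ± 341 normalized reads in WT against 4274 ± 276 in the knockout. Among 10 cysteine proteases, all but Lgmn related to Ctsc, Ctsh rose 2.49-fold to 804 ± 119, and Ctss and Ctsw also rose. Ctsb fell 2.32-fold to 390.2 ± 48.2 and Lgmn fell. Of 16 tested protease inhibitors other than the members, mostly serpins and cystatins, Serpinb2 rose from 18.5 ± 1.85 to 96.2 ± 20.3. Serpina3g and Serpinb8 were called lower at under 5 normalized reads in WT, and 13 were not called. Of 9 tested genes related to the serine proteases, which include the membrane protease Tmprss3 and haptoglobin (Hp), a relative with no protease activity, Mcpt8 rose and Klk1 was called lower from 2.99 normalized reads.

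A Lin-c-Kit+ gate is meant to remove mature neutrophils, monocytes, lymphocytes and late erythroid cells, yet footprints of markers of these cells were read in both genotypes, and some of the markers changed. The summed level of 10 progenitor markers was 3915 to 3993 normalized reads in WT against 4279 to 4878 in the knockout, with 2 of 10 higher and 0 lower. That of 10 mature neutrophil markers was 6437 to 6589.7 and 5415 to 5723, with 3 higher and 4 lower. For 10 eosinophil, basophil and mast cell markers it was 13333 to 16492 and 19798 to 21760.1, with 4 higher and 1 lower, and for 10 monocyte and macrophage markers 1799 to 2024 and 1691 to 1823, with 0 higher and 1 lower. B cell markers summed to 311 to 332 and 853 to 1082, with 6 of 10 higher, and erythroid markers to 2304 to 2309 and 3753 to 3831, with 5 higher and 1 lower. T and NK cell markers were 345 to 426 and 259 to 277, with 0 higher and 2 lower. Megakaryocyte markers summed to 651 to 725 and 903 to 1200 (2 higher), with Gp1bb at 0 throughout, and stromal and endothelial markers to 271 to 348 and 412 to 525 (3 higher, 1 lower). Where limma called 0 markers in a direction, edgeR called 0 as well except for 1 higher monocyte marker. At an unadjusted p under 0.05 there were 2 higher monocyte markers and 1 lower progenitor marker in those directions, and 0 in the others. Among all tested genes 10.3% were higher and 10.9% lower, and no marker list was tested against these shares. The part of these cells in the changes of the granule genes was not tested.

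The authors' deposited table gave 6 of the 10 genes an adjusted p under 0.05, the same 3 higher and 3 lower. In the authors' deposited table that held for 23.4% of the 14164 genes with an adjusted p below 1, 13.1% higher and 10.3% lower, the other genes being listed at exactly 1. In the authors' deposited table the log2 fold change of Mpo was 1.19 and that of Prtn3 -0.99, and Cst7 had an adjusted p of 0.0529. With edgeR on recovered reads 7 of the 10 genes passed, against 29.5% of 10891 genes. Of these 3 were higher (16.5% of genes) and 4 lower (13%), the added one being Cst7.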

How the data were processed

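Footprint values of 10 genes were read from 1 table of 3 WT and 3 Mov10 knockout libraries. The authors deposited signal values which behave as reads scaled by a constant for each library: 99.9757% of values above 0 were whole multiples of that library's step, within 0.05 of a read. The build is GRCm39, per the submitters' processing notes, whereas aligner, counter, annotation and strand setting are not given in the sources. The log2 fold changes, p-values and adjusted p-values that the authors deposited come from an unstated test. Gene lengths are in bases per the file headers.

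The main test was limma 3.58.1 (R 4.3.3) with a variance trend, modelling log2(value + 1) by genotype for genes averaging 1 normalized read or more. Calls needed an adjusted p below 0.05 (Benjamini-Hochberg, over all tested genes). A fold change on this scale understates changes of low genes. Camp, Rps29, Igkc, Ssr4 and Rpl27, whose values follow the step of the other genotype, were left out. Floors of 3 reads cover counting error only, as PCR copies were not marked. Recovered reads were tested with edgeR 4.0.16 and DESeq2 1.42.0. Other alternatives were TMM, upper-quartile and library-total scaling, cyclic loess, limma-voom, other filters, pseudocounts, variance settings and thresholds, thinning to equal reads (seed 1), a replicate block and each library left out in turn.

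Both tools were tested on data simulated for this comparison, with 100 genes at each size of change. Among 17186 genes limma found 51% of 2-fold and 94% of 4-fold changes, and edgeR found 57% and 96% among 10764 genes. Upstream sequences came from RefSeq (GRCm38.p6). The members and lists were chosen with earlier results of these data known. Named were all members, up to 4 called genes per list with the smallest p and non-overlapping groups plus the strongest of the opposite direction, and neighbours within 100 kilobases. Other named genes were chosen after their values were seen. Some genes of the lists are not reported by name here. Replicate numbers were not used to pair libraries. Figures were drawn with matplotlib 3.10.9.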

Additional observations from a re-analysis of the deposited data

How the results depend on the processing

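Prtn3 kept its direction and its call under all 22 alternatives. Fewer or more members were called under some settings. Without a variance trend 2 were called, 1 higher and 1 lower (1193 and 1479 of all 17114 genes), while cyclic loess gave 0 higher and 5 lower members (1698 and 1388 of all). Library totals gave 6 lower and thinning to equal reads 5 lower (2845 and 2279 of all). Thinning also replaces the deposited scaling by equal library totals, so it does not separate depth from scaling. Leaving out 1 library at a time gave 4 to 7 members, 2 to 3 higher and 2 to 4 lower. Directions turned for Elane (0.18 with upper-quartile scaling, 0.069 without WT replicate 1, 0.0015 without knockout replicate 1, with a range of -0.077 to 0.069 over the libraries left out), for Ctsc (0.035 with upper-quartile scaling) and for Ctsg (-0.0050 after cyclic loess). The cause of these changes was not tested.

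Over all genes, the main count of 3628 was 1427 (931 higher, 496 lower) at an adjusted p under 0.01. Higher genes numbered 1159 after thinning, and lower genes 1158 when a mean of 50 normalized reads was required, where fewer genes were tested. Each library left out gave 1360 to 4599 calls, 853 to 2066 higher and 501 to 2580 lower, with the lowest without WT libraries. A replicate block called 3245 genes and 6 members, 3 higher and 3 lower, and changed no member's call. With it the limma adjusted p-values moved both ways, from 2.02e-05 to 6.73e-13 for Mpo and from 0.0292 to 0.0423 for Prss57. Deviations of same-numbered libraries correlated at -0.0294 to -0.0055, so no effect shared by same-numbered libraries was seen. With 3 libraries per genotype, such correlations cannot exclude that the libraries were paired. Of protein-coding reads alone, the 10 genes took 2.37% in the knockout. Levels per coding length were not run, as protein sequences were not used here. Knockout libraries held 22 to 37 reads of Cst7 and 35 to 90 of Srgn. With thinning, the log2 change of Prss57 was 0.23 and its call was lost (limma adjusted p = 0.327). With library totals and no thinning it was 0.31 and the call was lost too (limma adjusted p = 0.1485).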

Other observations

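All 10 genes had their highest WT value in WT replicate 1, which was the highest WT library for 36.4% of all tested genes. In the knockout the highest value fell in replicate 1 for 6 of the genes, in replicate 2 for 2 and in replicate 3 for 2. Over the 6 libraries, the 5 other genes whose log2 levels ran most like the summed level of the set were Ighg2b, Ubald2, Trim28, Rps4x and Slc38a2, with Pearson correlations of 0.995 to 0.998 among 6297 genes compared. The libraries fall into 2 genotypes and Mpo leads the sum, and no test was made. Ighg2b, an immunoglobulin heavy chain gene, had 270.5 normalized reads in WT against 749 in the knockout, and Slc38a2, an amino acid transporter gene, 989.7 and 1668.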
